A study of Mus musculus with 2 samples.

Results

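Kinesins are motor proteins that walk along microtubules, and their genes were followed here in the apex of hearts of mouse embryos at E12.5, where RNA was sequenced from an Ezh2 mutant and a heterozygous control. Members were found by name, as every gene whose symbol begins with Kif and a number or with Kifc and a number, a rule that uses no measured value; the family itself and the roles used to group it were picked with earlier results of these data known. This gave 38 of 29383 genes, from 40 of 29595 gene models in the deposited table. The KO group was Nkx2-5cre, Ezh2f/f, with 2 floxed copies of Ezh2, and the Het group was Nkx2-5cre, Ezh2f/+, with 1 floxed copy. Both groups carried the Cre recombinase driven by Nkx2-5, a gene of the heart lineage, so that recombination is restricted to cells in which that driver is or was active. Each group was 1 library of total RNA from 8 pooled hearts, so the spread between embryos was not measured, and the text gives sizes and counting error with no p-value.

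Kinesins share a conserved motor domain that binds microtubules and splits ATP. A set of them builds and elongates the mitotic spindle, moves chromosomes and completes cell division, and these are transcribed mainly in dividing cells. Another set hauls vesicles, mitochondria and cytoskeletal parts along microtubules, and some of these, such as Kif1a and Kif5a, are known mainly from axons. A few work in cilia, where Kif3a and Kif3b drive transport along the ciliary shaft and Kif7 acts in Hedgehog signalling.

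The libraries held 14122579 reads in KO and 13944617 in Het. Ezh2 itself had 319 reads in the library labelled KO and 493 in Het, a KO-to-Het ratio of 0.601 with a 95% counting interval of 0.521 to 0.694. Reads were scaled with TMM, a trimmed mean of log ratios, and are given as CPM, counts scaled to library size. The log2 ratio is log2((KO CPM + 1)/(Het CPM + 1)), while the plain ratio of scaled reads is given with its exact conditional Poisson interval, which covers counting error only. Markers of cardiomyocytes, which the labels name as the cell type, were all detected, with 8 of 8 above 1 CPM and a sum of 43670 CPM in KO and 44839 CPM in Het. Markers of endothelium (5 of 5), epicardium (5 of 5) and leukocytes (4 of 4) also reached 1 CPM in a library, so the apex RNA held other cell types. In bulk RNA, fewer cells of a type and less RNA per cell cannot be told apart.

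Of the 38 kinesin genes, 34 reached 1 CPM in a library. Calls of 2-fold and 1.5-fold use the log2 ratio with 1 CPM added, which draws low genes toward 0. Among the 34, 2 were at least 2-fold higher in KO (5.88%, against 0.605% of the 16185 genes that reached 1 CPM), and 0 were at least 2-fold lower (against 0.173%). The 2 were Kif1a and Kif21b, and they were also the only 2 of the 34 called at least 1.5-fold higher, a share of 5.88% against 3.45% of all genes. None was called at least 1.5-fold lower, against 1.88%. The plain ratio passed 1.5-fold in 3 further members with few reads, Kif5c (1.67), Kif17 (1.55) and Kif9 (0.531), and the interval of each included 1. The counting interval lay wholly above 1 in 9 of the 34 (26.5%, against 17.4% of all genes) and wholly below 1 in 8 (23.5%, against 19.1%). An interval narrows with more reads, and these shares are not matched for depth. The log2 ratio was above 0 in 20 of the 34 (58.8%, against 48.8% of all genes), and its median was 0.05, against -0.01 for all genes past the same floor. Before TMM scaling, kinesins took 0.168% of reads in KO (exact 95% interval 0.166 to 0.170) and 0.160% in Het (0.158 to 0.162). With TMM scaling their sum was 1633 CPM in KO and 1647 CPM in Het, a ratio of 0.992 (0.974 to 1.01).

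**Figure D1:**
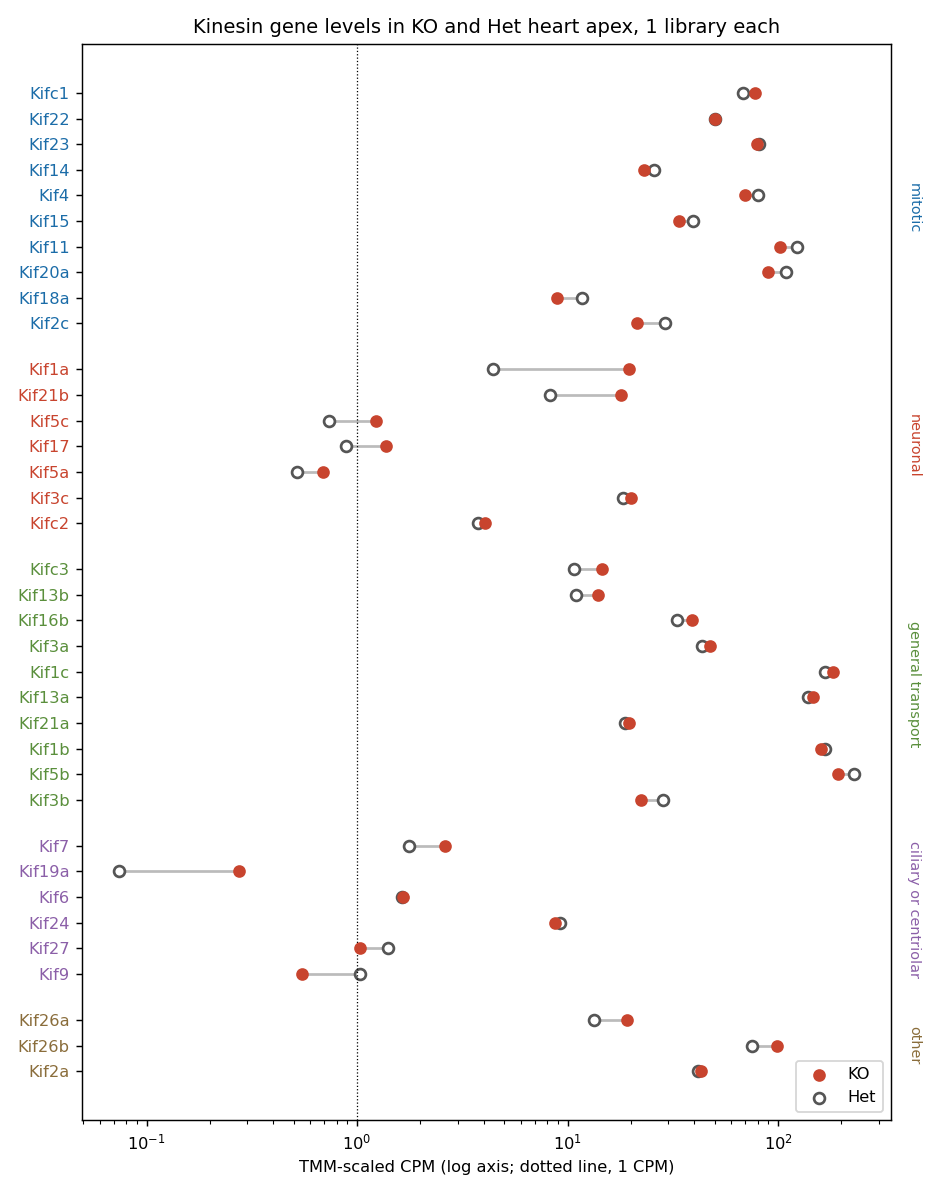
Scaled level of the 36 kinesin genes with at least 1 read, in CPM on a log axis, with filled points for KO and open points for Het (1 library each) and genes grouped by role. Kif1a and Kif21b have the widest gaps among genes above 1 CPM in both libraries, and Kif2b and Kif12, with 0 reads, are not drawn.

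Levels were compared between genes only after division by transcript length, as CPM per kilobase of the longest GENCODE transcript. Kif5b, the ubiquitous heavy chain of kinesin-1, stood at 31.9 CPM per kb in KO and 38.1 in Het. Kif20a, a motor of cytokinesis, stood at 24.4 in KO and 29.7 in Het. Kif1c, a carrier of vesicles in many cell types, stood at 27.2 in KO and 24.9 in Het. Motors of division and of general transport therefore both lay near the top of the order. The summed Kifc1 loci stood at 33.1 in KO and 28.9 in Het, but this sum covers a pair of loci and is set against the length of a single transcript. Kif1a was at rank 23 of 38 in KO and rank 28 in Het, and Kif21b at rank 24 in KO and rank 27 in Het, so both remained in the lower part of the order in KO as well.

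At the other end, 4 members stayed below 1 CPM in both libraries. Kif2b, a relative of the spindle motor Kif2c, and Kif12 had 0 reads in each library, which allows a level of up to 0.206 CPM in KO and 0.222 CPM in Het. The axonal motor Kif5a had 10 reads in KO and 7 in Het. Kif19a, a motor of motile cilia, had 4 reads in KO and 1 in Het. No difference was detectable for these genes at this depth.

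Neuronal kinesins carried the largest differences of the family. Kif1a, which carries synaptic vesicle precursors and dense-core vesicles along axons, had 285 reads in KO and 60 in Het, or 19.6 CPM in KO and 4.44 CPM in Het. Its ratio was 4.41 (3.33 to 5.93) and its log2 ratio 1.92, and 10 of the 16185 genes had a higher log2 ratio. Kif21b, a motor of dendrites and of lymphocytes that also limits microtubule growth, had 261 reads in KO and 112 in Het (17.9 CPM in KO and 8.28 CPM in Het). Its ratio was 2.17 (1.73 to 2.73) and its log2 ratio 1.03, with 89 genes higher. The log2 ratio of Kif21b was below 1 with a pseudocount of 5 CPM and after removal of the GC trend (0.79 in each case), whereas that of Kif1a was 1.38 and 1.72 under the same settings. Here and below, removal of the GC trend also takes out a trend in transcript length fitted with it.

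Both genes lie on chromosome 1 of the deposited table, whose genome build is not named. Kif1a spans 94914855 to 94998399 on the minus strand and Kif21b 138027978 to 138074591 on the plus strand. The nearest neighbour that reached 1 CPM on each side was looked up once the values of both kinesins were known, passing over models named by an accession. Since both kinesins stood out by their ratios, neighbours were likely to lie closer to 1. A difference shared across the region was not tested. Beside Kif1a the neighbours were Capn10, with 160 reads in KO and 108 in Het (ratio 1.38, 1.07 to 1.77), and Sned1, with 65 in KO and 45 in Het (1.34, 0.904 to 2.01). Beside Kif21b they were Tmem9 (ratio 0.904, 0.821 to 0.996) and Camsap1l1 (0.977, 0.882 to 1.08). Kif14, a mitotic kinesin farther along the same chromosome at 138364425 to 138428088, had 337 reads in KO and 349 in Het.

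The other neuronal kinesins differed by less than their counting error. Kif3c, a neuron-enriched kinesin-2 subunit, had 292 reads in KO and 247 in Het (ratio 1.10, 0.924 to 1.31), with an overlap of 2612 bases with models on the other strand that had 186 in KO and 192 in Het. Kifc2, a minus-end directed motor, had 59 in KO and 51 in Het (1.07, 0.726 to 1.60). Kif5c, another kinesin-1 heavy chain, had 18 reads in KO and 10 in Het (1.67, 0.732 to 4.06). Kif17, a motor of dendrites, had 20 reads in KO and 12 in Het (1.55, 0.721 to 3.47), and an overlapping model of the same gene had 21 in KO and 10 in Het. Kif5c and Kif17 reached 1 CPM through their KO level alone. The median log2 ratio over all 7 neuronal kinesins in the table was 0.33, against 0 over all genes in the table. This median rests on few reads, and among the 6 that reached 1 CPM it was 0.35 with a pseudocount of 1 CPM, 0.62 with 0.1 CPM and 0.12 with 5 CPM.

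Reads of a gene set against its close relative in the same library do not depend on scaling. Kif1a had 12.3 reads per 100 reads of Kif1b, its broadly expressed paralog, in KO, and 2.67 in Het. Kif21b had 91.9 reads per 100 reads of Kif21a in KO and 44.1 in Het. In contrast, the broadly expressed paralogs themselves lay close to a ratio of 1. Kif1b, which carries mitochondria and synaptic vesicle precursors, had 2318 reads in KO and 2248 in Het (ratio 0.958, 0.904 to 1.02), and Kif21a 284 in KO and 254 in Het (1.04, 0.874 to 1.24). The Kif1b value may include reads shared with a second model on the same strand, named KIF1B, with 283 reads in KO and 276 in Het.

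**Figure D2:**
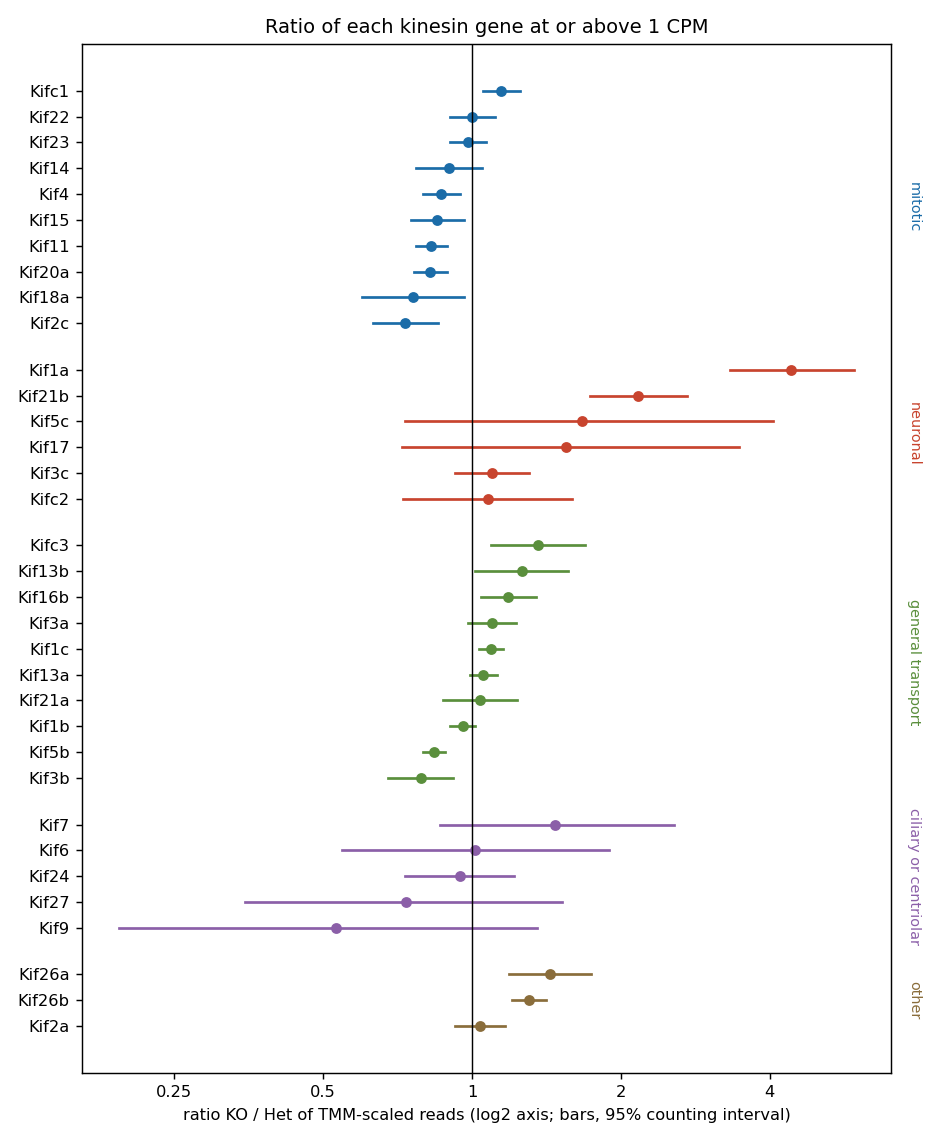
KO-to-Het ratio of scaled reads for the 34 kinesin genes at or above 1 CPM, on a log2 axis, with points for the ratio and bars for the 95% counting interval. Kif1a (4.41) and Kif21b (2.17) lie apart from the rest, and 8 of 10 mitotic kinesins lie below 1.

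Since Kif1a is known from neurons, a list of 15 neuron markers was read beside it. Of these, 7 reached 1 CPM in a library, 5 of them with a log2 ratio above 0 (71.4%, against 48.8% of all genes). Called at least 1.5-fold higher were 2 (28.6%, against 3.45% of all genes). The median log2 ratio of the 7 was 0.29, but 0.56 with a pseudocount of 0.1 CPM and 0.09 with 5 CPM. Over all 15 it was 0.19, against 0 over all genes in the table. The summed level over all 15 was 77.96 CPM in KO and 69.4 CPM in Het. Most of that sum was Gap43, a growth cone protein with 859 reads in KO and 777 in Het (ratio 1.03, 0.931 to 1.13). The neurofilament gene Nefm was higher in KO, with 74 reads against 18 in Het (3.82, 2.26 to 6.80), as was Nefl, with 67 reads in KO and 35 in Het (1.78, 1.17 to 2.76). The RNA-binding protein gene Elavl4 had 40 reads in KO and 47 in Het, the tubulin gene Tubb3 15 in KO and 9 in Het, and Stmn2, a regulator of microtubules, 16 in KO and 19 in Het. The vesicle genes Syt1 and Chga had 2 reads each in KO and 0 in Het. Markers of Schwann and neural crest cells summed to 6.11 CPM in KO and 6.58 CPM in Het, with Sox10 at 3 reads in KO and 0 in Het, Foxd3 at 0 in both, and Fabp7 at 14 in KO and 30 in Het. The part of neurons in the Kif1a and Kif21b values was not tested.

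**Figure D3:**
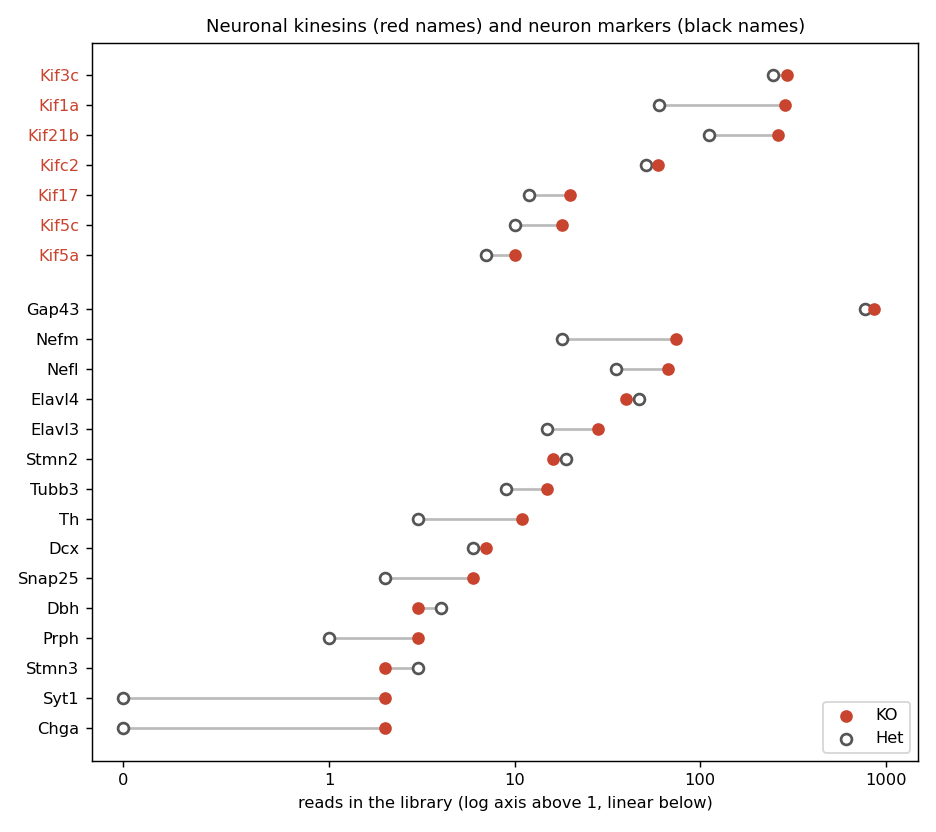
Reads of the 7 neuronal kinesins (red names) and 15 neuron markers (black names) in KO (filled) and Het (open), 1 library each, on an axis that is linear below 1 read and logarithmic above. Kif1a, Kif21b, Nefm and Nefl have more reads in KO, and Gap43 differs little.

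To show the sequence at the start of Kif1a, the RefSeq window from 250 bases before to 50 bases after it is printed here (GRCm38.p6, chr1:93101825-93102124, minus strand, read 5′ to 3′), with CG dinucleotides in capitals, because PRC2, the complex of Ezh2, is known to gather at promoters rich in CG.
Kif1a: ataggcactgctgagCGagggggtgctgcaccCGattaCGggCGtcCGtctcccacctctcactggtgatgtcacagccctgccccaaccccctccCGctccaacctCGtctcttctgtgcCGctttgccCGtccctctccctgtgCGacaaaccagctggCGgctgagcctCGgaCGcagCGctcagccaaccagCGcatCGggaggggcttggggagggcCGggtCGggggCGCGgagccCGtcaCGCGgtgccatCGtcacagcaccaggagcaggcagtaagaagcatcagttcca

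The Kif1a window held 24 CG dinucleotides, more than in 80.0% of the 32851 windows in the RefSeq table. Kinesin windows as a group were rich in CG, with a median of 26 over 34 windows of 30 members, against 7 over all windows, so that Kif1a did not stand out among them. Among other kinesin windows, Kif13a had 62, Kif1b 40, Kif26b 38, Kif3c 15 and Kif5c 14. A second window of Kif1a, at an inner start (chr1:93082431-93082730), held 1. No window for Kif21b was at hand. Binding of PRC2 was not measured here, and its part in the Kif1a value was not tested.

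Mitotic kinesins were mostly lower in KO, by small amounts. Of the 10 that reached 1 CPM, 8 had a log2 ratio below 0, as did 8288 of the 16185 genes past the same floor. In 6 of the 10 the counting interval lay wholly below 1, a share of 60.0% against 19.1% of all genes. Intervals narrow with more reads, and all genes include those near 1 CPM, so the shares are not matched for depth. The interval lay wholly below 1 in 59.3% of spindle partners, 12 of 24 dynein and dynactin genes and 60.0% of endothelial markers. It did so in 4 of 8 cardiomyocyte markers, 17.4% of intraflagellar and Hedgehog genes and 5.26% of cargo adaptors, and in no epicardial marker. Under total-count scaling 3 of the 10 mitotic kinesins had an interval wholly below 1 (against 11.4% of all genes), namely Kif2c, Kif11 and Kif20a. The upper bounds of Kif15, Kif18a and Kif4 were then 1.02, 1.02 and 1.004. The median log2 ratio of the 10 was -0.22 under TMM, against -0.01 for all genes, and over all 11 in the table it was -0.20. With scaling to the total count, which adds 0.09 to log2 ratios, the median was -0.13 and 7 of 10 were below 0; Kif23 changed sign. After removal of the GC trend the median was -0.17, again with 7 of 10 below 0 and Kif23 above.

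Kif2c, a depolymerase that corrects faulty attachments of chromosomes, had 310 reads in KO and 393 in Het. Its ratio of 0.733 (0.630 to 0.853) was the lowest of the mitotic kinesins, and 15359 of the 16185 genes had a higher log2 ratio. Kif18a, which limits the swing of chromosomes at metaphase, had 130 reads in KO and 159 in Het (0.760, 0.598 to 0.964). Kif11, the motor that pushes spindle poles apart, had 1482 reads in KO and 1664 in Het (0.828, 0.771 to 0.888). Kif15, which assists Kif11, had 491 reads in KO and 536 in Het (0.851, 0.752 to 0.964). Both spindle pole motors thus differed by a similar factor.

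Kif20a, needed for cytokinesis, had 1307 reads in KO and 1474 in Het (0.824, 0.764 to 0.888). It overlaps Cdc23 on the other strand by 2327 bases of gene span, and Cdc23 had a ratio of 0.886 (0.824 to 0.952). Kif4, a chromosome-bound motor encoded on the X chromosome, had 1010 reads in KO and 1083 in Het (0.867, 0.795 to 0.945). Kif14, a cytokinesis motor, had a ratio of 0.897 (0.770 to 1.05).

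Not every division motor was lower. Kif23, a component of the centralspindlin complex of the midzone, had 1157 reads in KO and 1094 in Het (0.983, 0.904 to 1.07), and Kif22, which pushes chromosome arms outward, 733 in KO and 680 in Het (1.002, 0.901 to 1.11). Kifc1, a minus-end directed motor that focuses spindle poles, had 1135 reads in KO and 920 in Het (1.15, 1.05 to 1.25). The symbol covers a pair of loci on chromosome 17, at 27054036 to 27069524 with 487 reads in KO and 388 in Het, and at 34012611 to 34027561 with 648 in KO and 532 in Het. RefSeq gives a close relative, Kifc5b, with a span of 15489 bases, the same as the model at the first locus, and how the counting split reads between near-identical copies is not given, so that their separate ratios of 1.17 (1.02 to 1.34) and 1.13 (1.01 to 1.27) are uncertain. Without Kifc1 the mitotic median was -0.23.

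Kinesin genes that the table files under other names were looked up as well. Cenpe, a motor of the kinetochore, had 1496 reads in KO and 1640 in Het (0.848, 0.790 to 0.910), and Mphosph1, now named Kif20b, 490 in KO and 577 in Het (0.789, 0.698 to 0.892). The gene 3000004C01Rik, now named Kif18b, had 677 reads in KO and 486 in Het (1.29, 1.15 to 1.46), so it stood on the other side of 1 from Kif18a. Stard9, a kinesin of centrosomes, had 80 in KO and 99 in Het (0.751, 0.552 to 1.02). Spindle and checkpoint partners of these motors had a median log2 ratio of -0.18 over 27 genes, with 18 below 0 and 9 above (33.3%, against 48.8% of all genes). The mitotic kinase gene Cdc2a, now named Cdk1, had a ratio of 0.776 (0.730 to 0.825) and the spindle pole gene Numa1 1.02 (0.960 to 1.09). After removal of the GC trend the median of the partners was -0.08.

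Many genes of late cell cycle carry a short promoter element called CHR near their start, which binds the DREAM and MuvB complexes, often with CCAAT boxes of the factor NF-Y upstream. Both were searched in the RefSeq windows on both strands, as TTTGAA or TTCGAA for CHR and as CCAAT. Starts from 80 bases before to 30 bases after are shown for the 6 mitotic kinesins with a CHR match near the start, of which 3 had an interval below 1 (Kif11, and under TMM but not total-count scaling Kif15 and Kif4) and 3 did not (Kif22, Kif23, Kifc1), with matches to either motif in capitals, so that both groups can be compared by eye. The windows are chr19:37376302-37376411 on the plus strand for Kif11, chr9:122951001-122951110 on the plus strand for Kif15, chrX:100625985-100626094 on the plus strand for Kif4, chr7:127042391-127042500 on the minus strand for Kif22, chr9:61946770-61946879 on the minus strand for Kif23 and chr17:33890604-33890713 on the minus strand for Kifc1, all on GRCm38.p6 and read 5′ to 3′ along the gene.
Kif11: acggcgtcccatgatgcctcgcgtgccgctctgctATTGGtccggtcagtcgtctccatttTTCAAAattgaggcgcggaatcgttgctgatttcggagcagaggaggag
Kif15: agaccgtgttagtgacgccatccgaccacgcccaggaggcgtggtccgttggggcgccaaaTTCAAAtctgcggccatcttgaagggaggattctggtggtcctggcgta
Kif4: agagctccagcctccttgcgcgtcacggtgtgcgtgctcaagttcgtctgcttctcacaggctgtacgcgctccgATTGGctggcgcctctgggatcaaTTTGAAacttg
Kif22: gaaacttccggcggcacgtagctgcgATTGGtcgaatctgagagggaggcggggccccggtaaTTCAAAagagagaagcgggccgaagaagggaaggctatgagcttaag
Kif23: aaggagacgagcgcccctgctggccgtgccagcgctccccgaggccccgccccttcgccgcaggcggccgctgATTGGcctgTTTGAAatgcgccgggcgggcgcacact
Kifc1: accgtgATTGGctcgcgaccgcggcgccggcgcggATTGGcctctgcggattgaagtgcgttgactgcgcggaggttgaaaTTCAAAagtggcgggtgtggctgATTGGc

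Of 10 mitotic kinesin windows, 8 held the CHR letters, against 19.2% of all windows in the table, and 6 held both motifs, against 7.52%. These 10 are not the 10 mitotic kinesins that reached 1 CPM. They include Kif2b, which had 0 reads in each library, and no window for Kif20a was at hand. In 6 of the 10 a CHR match began within 40 bases of the start, against 4.50% of all windows. These were the 6 windows printed above, where it began at base -19 in Kif11 and Kif15, -17 in Kif22, 2 in Kifc1, 3 in Kif23 and 20 in Kif4. Members with an interval below 1 and members without one were thus both among them. None of 8 windows of general transport kinesins held the CHR letters. Outside the mitotic group, Kif24 and Kif26b had a match within 40 bases of the start. A match is a description of letters and no evidence of binding.

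General transport kinesins made up the largest part of kinesin reads and as a group differed little. Their summed level was 837 CPM in KO and 847 CPM in Het, a ratio of 0.988 (0.963 to 1.01). Their median log2 ratio was 0.10 over 10 genes, with 7 above 0 (70.0%, against 48.8% of all genes). Kif5b, the main kinesin-1 heavy chain outside neurons, had 2798 reads in KO and 3110 in Het (0.836, 0.794 to 0.880). Kif1c had 2646 reads in KO and 2252 in Het (1.09, 1.03 to 1.16), and Kif13a, a carrier of endosomes, 2134 in KO and 1880 in Het (1.05, 0.991 to 1.12). After removal of the GC trend the log2 ratios of Kif1c and Kif13a were -0.04 and -0.05, and that of Kif5b -0.15 instead of -0.26.

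In this group 3 members with fewer reads, Kifc3, Kif13b and Kif16b, were higher in KO, with intervals above 1. The intervals of Kif21a, given above, and Kif3a, given below, included 1, and Kif3b, given below, was lower. Kifc3, a minus-end directed motor of epithelial junctions, had 212 reads in KO and 145 in Het (1.36, 1.09 to 1.69). Kif13b had 202 reads in KO and 149 in Het (1.26, 1.01 to 1.57). Kif16b, which moves early endosomes, had 570 in KO and 447 in Het (1.18, 1.05 to 1.34). The intervals of these 3 exclude 1 under the scaling used. After removal of the GC trend their log2 ratios were 0.19, 0.16 and 0.24, and that of Kif3a was 0.18.

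Subunits of heterotrimeric kinesin-2 did not go the same way. Kif3a had 692 reads in KO and 587 in Het (1.10, 0.980 to 1.22), while its partner Kif3b had 326 in KO and 385 in Het (0.787, 0.677 to 0.914). The accessory subunit gene Kifap3 had 510 reads in KO and 570 in Het (0.831, 0.736 to 0.939). Kif3a thus had 212.3 reads per 100 reads of Kif3b in KO and 152.5 in Het, a comparison in which scaling cancels.

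Ciliary and centriolar kinesins had few reads. Kif24, which restrains cilium formation at the centriole, had 127 reads in KO and 125 in Het (0.944, 0.732 to 1.22). Kif7 had 38 in KO and 24 in Het (1.47, 0.860 to 2.56), summed over a pair of short models on opposite strands that overlap by 1503 bases and cannot be told apart without strand. Kif6 had 24 reads in KO and 22 in Het, Kif27 15 in KO and 19 in Het, and Kif9 8 in KO and 14 in Het. All 5 intervals include 1.

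The 2 kinesin-11 genes, whose motor domains bind microtubules without ATPase-driven walking, were both higher in KO. Kif26a had 278 reads in KO and 180 in Het (1.44, 1.19 to 1.74). Kif26b had 1432 in KO and 1021 in Het (1.30, 1.20 to 1.41). The log2 ratio was 0.49 for Kif26a and 0.38 for Kif26b; with the GC trend removed these were 0.15 and 0.19. A model inside Kif26a, named by an accession, had 19 reads in KO and 29 in Het. Kif2a, a depolymerase that trims axon branches and acts at spindle poles, had 627 in KO and 562 in Het (1.04, 0.924 to 1.16). The log2 ratio of Kif2a was 0.05, but 0.21 with the GC trend removed, so the pair did not stand above it there.

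The make-up of the family by role followed from these values. Mitotic kinesins took 34.0% of kinesin reads in KO (exact 95% interval 33.4 to 34.6) and 37.5% in Het (36.9 to 38.1). Neuronal kinesins took 3.98% in KO (3.73 to 4.23) and 2.24% in Het (2.05 to 2.44), and Kif1a by itself 1.20% in KO and 0.269% in Het. General transport kinesins took 51.2% in KO (50.6 to 51.9) and 51.4% in Het (50.8 to 52.1). The remaining group, with Kif26a, Kif26b and Kif2a, took 9.83% in KO (9.46 to 10.2) and 7.91% in Het (7.56 to 8.28). The intervals of the mitotic, the neuronal and this remaining group did not overlap between libraries, and those of general transport and of ciliary kinesins did. These intervals cover counting error only and narrow with the number of reads, so small differences between summed reads can part them. Other summed lists had KO-to-Het ratio intervals of 0.939 to 0.967 (dynein and dynactin), 0.932 to 0.987 (endothelium), 0.962 to 1.08 (epicardium) and 0.819 to 1.10 (leukocytes). Among single genes, the interval of the KO-to-Het ratio lay wholly above 1 in 17.4% of all genes and wholly below 1 in 19.1%. A single-gene ratio is not the same measure as a summed share.

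**Figure D4:**
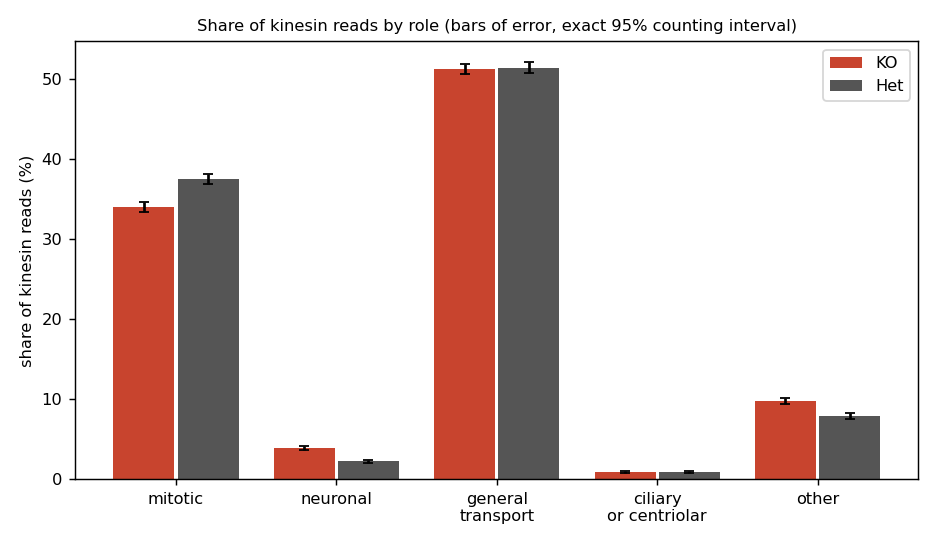
Share of all kinesin reads by role in percent, with KO bars left of Het bars (1 library each) and exact 95% counting intervals as error bars. The mitotic share is 34.0% in KO and 37.5% in Het, and the neuronal share 3.98% in KO and 2.24% in Het.

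Cargo adaptors and regulators of kinesins, on a list of 20 genes in the table, were more often above 0 than below. Of the 19 that reached 1 CPM, 16 had a log2 ratio above 0 (84.2%, against 48.8% of all genes), with a median of 0.23 (0.23 over all 20). Called at least 1.5-fold higher were 3 (15.8%, against 3.45% of all genes). These were Mtap7, a microtubule protein that recruits kinesin-1 (256 reads in KO and 148 in Het, ratio 1.61, 1.31 to 1.98), Mapk8ip1, a scaffold that binds kinesin light chains (164 in KO and 95 in Het, 1.60, 1.24 to 2.09), and Mtap7d2, a relative of Mtap7 (23 in KO and 7 in Het, 3.05, 1.27 to 8.42). Mtap7d2 reached 1 CPM through its KO level alone. The 4 light chains of kinesin-1, picked out here with their values known, stood at 1.23 (1.14 to 1.32) for Klc1, 1.25 (1.07 to 1.46) for Klc2, 1.18 (0.846 to 1.65) for Klc3 and 1.21 (0.9999 to 1.47) for Klc4, set against 0.836 for the heavy chain Kif5b that pairs with them. After removal of the GC trend the log2 ratios of Klc1 to Klc4 were 0.20, 0.08, -0.02 and 0.11, instead of 0.29, 0.31, 0.20 and 0.26. That of Kif5b was -0.15 instead of -0.26, so the contrast was smaller and Klc3 changed sign. The median of the adaptors with the GC trend removed was 0.12, with 12 of 18 above 0 (6495 of 13239 over all genes).

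Base composition moved with the ratios and is given for that reason. Over all genes past the floor with a GC value, split by transcript GC content into 10 equal groups, the median log2 ratio was -0.18 in the group with the lowest GC content and 0.19 in that with the highest. The median GC content was 47.3% for mitotic kinesins, 55.9% for neuronal and 48.7% for general transport kinesins, against 49.8% for all genes. Within its own GC group, 0.0755% of genes had a higher log2 ratio than Kif1a and 1.13% than Kif21b. Kif2c was below 96.5% of its group, Kif20a below 86.9% and Kif11 below 75.8%, while Kif26a was below 13.2%. With the joint trend in GC content and transcript length removed, the median of the 34 kinesins was -0.003.

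**Figure D5:**
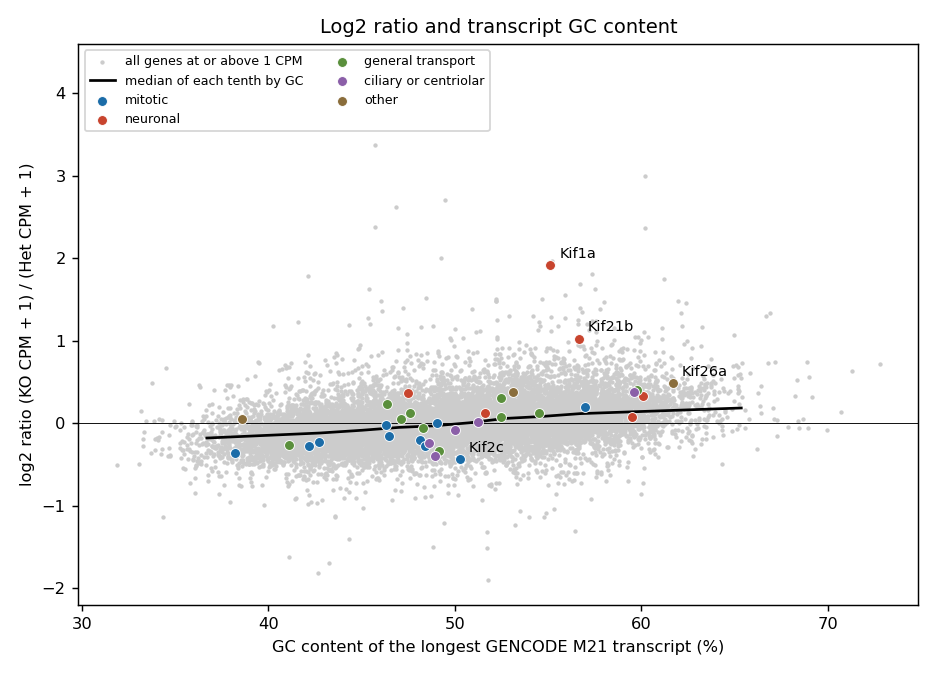
Log2 ratio (KO CPM + 1)/(Het CPM + 1) against GC content of the longest transcript in percent, with grey points for all genes at or above 1 CPM, coloured points for kinesins by role and a line through the medians of 10 GC groups. The line climbs from -0.18 to 0.19, Kif1a (1.92) and Kif21b (1.03) lie far above it, and most mitotic kinesins lie below it.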

How the data were processed

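RNA was sequenced from 1 pool of 8 heart apices per genotype, using a full-length transcript kit (per the labels' protocols). The deposited values are whole read counts per gene model, per the file headers, and a normalised column that equals CPM of the library total (recomputed from the counts to within 4.91e-11), without length scaling. The authors' ratio of Het over KO and their p-value, of a test that is not named, were deposited too and not used here. For aligner, counter, strand use and build, nothing is stated in the labels or headers read.

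Rows of 1 symbol were summed. Counts were scaled with TMM (edgeR 4.0.16, R 4.3.3; factors 1.03 for KO and 0.970 for Het). Counts and medians cover genes that reached 1 CPM in either library. Intervals are exact for reads taken as independent and cover counting error only. No molecular identifiers are described, so repeated reads of 1 molecule could not be set apart and the intervals may be too narrow. The ratio calculation was tested on simulated counts. Starts in the table count from 0, so 1 was added. Transcript GC content and length were those of the longest model in GENCODE M21; the GC alternative removes a quadratic trend in GC and log length fitted at a mean of at least 5 CPM, and 13239 of the genes past the floor (81.8%) had a value. Other alternatives were pseudocounts of 0.1 and 5 CPM, scaling to totals, upper quartiles or DESeq2 1.42.0 size factors, no floor or a floor of 5 CPM, and a single row per symbol. Promoters are from RefSeq (GRCm38.p6), 250 bases before to 50 after the start. Members, role lists, partner lists and tests were chosen with earlier results of these data known. All members at or above 1 CPM are named; of each other list, up to 4 genes at least 1.5-fold apart, or the 2 with the highest mean. Neuron and Schwann markers of note, the light chains and Kifap3, Mphosph1, Stard9, Cd68, Klf1, Dync1i1 and the neighbours fall outside that rule and were named with their values known. List entries matched 137 symbols and 8 synonyms; 3 were not matched. Some further markers are not reported here.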

Additional observations from a re-analysis of the deposited data

How the results depend on the processing

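No paired analysis was possible because each genotype has 1 library, and for the same reason no library could be left out. The number of kinesins at least 2-fold higher was 1 instead of 2 with a pseudocount of 5 CPM and with GC and length trends removed (Kif1a in each), and 2 under the other 7 alternatives. With a pseudocount of 0.1 CPM, 1 member instead of 0 was at least 1.5-fold lower, Kif9, which reached 1 CPM through Het alone, and 3 instead of 2 were at least 1.5-fold higher, the third being Kif5c, which reached 1 CPM through KO alone. Under total-count scaling 5 instead of 8 counting intervals lay below 1, and the 3 lost were mitotic (Kif15, Kif18a and Kif4; scalings compared for this list after seeing the data). The median of the group with Kif26a, Kif26b and Kif2a was 0.38, but 0.21 with no filter, where Kif12 enters at 0, and 0.19 with the GC trend removed. The neuronal median was 1.03 with a floor of 5 CPM, which leaves fewer genes. The mitotic median stayed below 0 under all 9 settings and both changes of the list made after seeing the data (from -0.23 to -0.13). Of 34 genes, 5 changed sign with GC removal and 3 under total-count scaling, none of them at least 1.5-fold apart. Depth limits the rarest members: for Kif9, with 8 reads in KO and 14 in Het, the interval spans 0.193 to 1.36.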

Other observations

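Dynein and dynactin, the motor complex that moves toward the opposite end of microtubules from most kinesins, went both ways. Of 25 genes, 24 reached 1 CPM, 16 of them with a log2 ratio below 0 and 8 above (33.3%, against 48.8% of all genes). None was called 1.5-fold apart with 1 CPM added (the plain ratio of Dync1i1 was 1.52, 0.871 to 2.71). The median of the list stood at -0.13 (-0.05 with GC removal). The heavy chain gene Dync1h1 had 5603 reads in KO and 4144 in Het (ratio 1.26, 1.21 to 1.31), while the light chain gene Dynll1 had 4323 in KO and 4428 in Het (0.907, 0.870 to 0.946). Genes of intraflagellar transport and of Hedgehog signalling, the partners of the ciliary kinesins, had a median of -0.07 over 23 of 25 genes (0.01 when scaled to the total count). Above 0 were 10 of the 23 (43.5%, against 48.8% of all genes), and none of these genes was called 1.5-fold apart. Among them Ift52 had 498 reads in both libraries (0.929, 0.819 to 1.05), and 1700019E19Rik, a name that RefSeq lists as a synonym of a gene on that list, had 943 in KO and 911 in Het (0.962, 0.877 to 1.06).
Markers of other cells were compared for the same libraries. Endothelial markers had a median log2 ratio of -0.11, with Cdh5 at 0.929 (0.885 to 0.976) and Tie1 at 1.13 (1.07 to 1.21). Epicardial markers had -0.07, with Upk3b at 0.934 (0.848 to 1.03) and Tbx18 at 1.22 (1.09 to 1.37). Leukocyte markers had -0.02, with C1qa at 0.908 (0.664 to 1.24), Csf1r at 0.835 (0.685 to 1.02) and Cd68, with 69 reads in KO and 40 in Het, at 1.60 (1.07 to 2.43). Among erythroid markers Hbb-b1 had 13400 reads in KO and 25870 in Het (0.481, 0.471 to 0.491), while Klf1, below 1 CPM in both, had 13 in KO and 11 in Het (1.10, 0.454 to 2.71). Cardiomyocyte markers had a median of 0.002, with Myh7 at 1.15 (1.14 to 1.16) and Myl2 at 0.858 (0.852 to 0.863).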
